A study of Rattus norvegicus with 2 samples.

Results

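The genes described here are 8 genes of the caspase pathway of cell death: the caspase genes Casp1, Casp6, Casp8, Casp9 and Casp12, the apoptosome gene Apaf1, and the inhibitor of apoptosis genes Xiap and Birc3. They were chosen by name, as the genes whose symbol in the probe-to-gene table equals one of these names. All 8 were found, each with 1 probe set, among 16592 named genes on the arrays. The cells were neonatal rat ventricular myocytes, heart muscle cells cultured from the ventricles of rat pups aged 1 to 2 days. All cells were kept in low-serum medium and received an adenovirus, which carried a short hairpin RNA (shRNA) against Mef2d in one group and against lacZ, a bacterial gene used as the negative control, in the other. RNA was taken 3 days later, and each group was measured on 1 Affymetrix array. The series text states a pool of 6 biological replicates per array, whereas the extraction notes speak of 3 per condition after pooling. The hairpin sequences were not used here.

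Caspases are proteases that cut other proteins after aspartate and are made as inactive precursors. In the extrinsic route a death receptor recruits adaptor proteins that activate the initiator caspase-8. In the intrinsic route cytochrome c released from mitochondria lets Apaf1 assemble the apoptosome, which activates the initiator caspase-9. Both initiators activate executioner caspases, and XIAP binds caspases and blocks them. Heart muscle cells are long-lived and are rarely replaced, and caspase activation in them has been studied as a route of cell loss in ischaemia and heart failure.

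With 1 array per group there is no replicate error, no test and no p-value. Levels are log2 values made by robust multi-array averaging (RMA). A difference is the log2 level on the array with the Mef2d shRNA label minus that on the array with the lacZ shRNA label. RMA levels of different probe sets are not compared with each other, since each probe set has its own response. A gene was counted as different from a fold of 1.5 (0.58 on the log2 scale) in either direction, among genes whose mean level reached the 30th percentile of all named genes (log2 4.85). As a measure of scatter, the differences of genes of similar level, in 20 bins, were summarised by a robust SD (a scaled median absolute deviation). It ran from 0.11 to 0.21 and mixes noise with any real differences. The targeted transcript went against its label: Mef2d measured 8.22 under the lacZ shRNA label and 8.94 under the Mef2d shRNA label. The arrays are therefore called the lacZ-labelled and the Mef2d-labelled array, and every direction would turn if the labels had been exchanged. All 12 cardiomyocyte markers looked up, among them Tnnt2, Actn2 and Ryr2, were past the level filter on these arrays, with levels between 9.02 and 12.82 on the lacZ-labelled array. Markers of other cell types passed it too: 9 of 10 fibroblast markers and all 6 smooth muscle markers measured. The highest of these were at 12.16 and 11.17 on the same array.

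None of the 8 genes differed by 1.5-fold between the arrays. Of the 7 above the level filter, 0 were 1.5-fold or more higher on the Mef2d-labelled array, where 0.844% of 11614 genes were, and 0 were as much lower, where 0.534% were. The largest differences were those of Xiap, at 0.47, and of Casp8, at -0.44, an inhibitor of caspases and an initiator caspase. Apaf1 followed at -0.28. The other 4 genes past the filter lay between -0.03 and 0.15. Over the 7 genes 4 differences were above 0 and 3 below, and their median was 0.02. The median of all 11614 genes was -0.01, with 48.2% above 0.

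**Figure D1:**
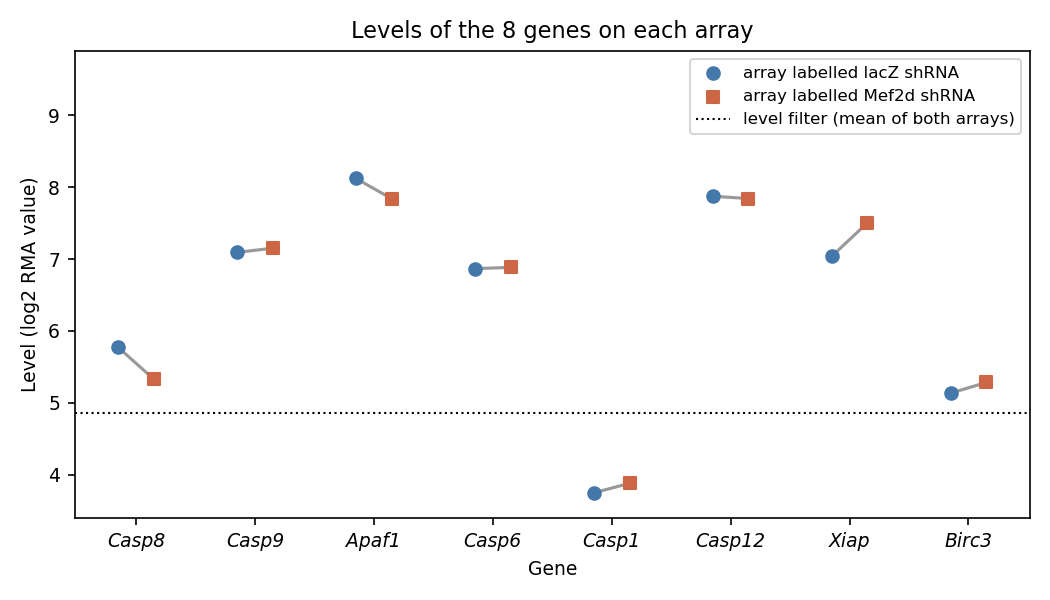
Level (log2 RMA value, vertical axis) of each of the 8 genes on the lacZ-labelled array (circles) and on the Mef2d-labelled array (squares), 1 array each, with the level filter of 4.85 as a dotted line. Xiap had the steepest upward line (7.04 to 7.51), Casp8 the steepest downward line (5.77 to 5.33), and both points of Casp1 lie under the filter.

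RefSeq promoters on the rat assembly GRCr8, from 250 bases before to 50 bases after the annotated start, were at hand for 5 of the 8 genes, Casp1, Casp6, Casp9, Casp12 and Apaf1. Those of Casp1, Casp12 and Apaf1 are printed 5′ to 3′ in the direction of the gene, because they show the low-GC promoters of the inflammatory caspase genes and the GC-rich kind of the others. In the first 2, capitals mark the core letters bound by interferon regulatory factors (GAAA, any 2 bases and GAAA, here read from the other strand as TTTC, any 2 bases and TTTC). In Apaf1, capitals mark the GC box (GGGCGG, or CCGCCC on the other strand). The Casp1 promoter lies at chr8:10872580-10872879 on the plus strand, that of Casp12 at chr8:10926938-10927237 on the plus strand, and that of Apaf1 at chr7:27466723-27467022 on the minus strand.
Casp1: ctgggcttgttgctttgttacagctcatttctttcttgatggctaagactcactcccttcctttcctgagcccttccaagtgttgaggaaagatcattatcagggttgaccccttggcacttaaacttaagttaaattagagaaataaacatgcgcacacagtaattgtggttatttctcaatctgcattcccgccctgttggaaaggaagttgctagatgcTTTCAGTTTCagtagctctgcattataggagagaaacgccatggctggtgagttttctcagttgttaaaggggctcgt
Casp12: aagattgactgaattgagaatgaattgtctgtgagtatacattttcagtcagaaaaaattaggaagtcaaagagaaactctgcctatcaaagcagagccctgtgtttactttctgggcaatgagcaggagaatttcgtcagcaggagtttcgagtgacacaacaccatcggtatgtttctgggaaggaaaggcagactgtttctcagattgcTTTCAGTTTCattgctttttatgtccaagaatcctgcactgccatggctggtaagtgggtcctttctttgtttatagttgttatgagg
Apaf1: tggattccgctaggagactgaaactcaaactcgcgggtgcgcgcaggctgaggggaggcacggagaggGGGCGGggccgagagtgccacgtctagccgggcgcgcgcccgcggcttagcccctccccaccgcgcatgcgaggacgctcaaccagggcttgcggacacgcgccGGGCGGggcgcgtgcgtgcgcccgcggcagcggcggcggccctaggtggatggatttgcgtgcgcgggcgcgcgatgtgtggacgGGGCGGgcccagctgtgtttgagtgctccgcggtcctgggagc

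The Casp1 and Casp12 promoters each held 1 interferon regulatory factor core, on the minus strand relative to the gene, starting 28 and 38 bases before the annotated start. The longest run they share is TGCTTTCAGTTTCA, of 14 bases, which contains it. Of 33465 rat promoters of this length without ambiguous bases, 3.92% held this core. Casp6, Casp9 and Apaf1 held none. GC boxes numbered 3 in Apaf1, 3 in Casp9, 1 in Casp6, 1 in Casp1 and 0 in Casp12, against 33.1% of all promoters with at least 1. The GC content was 73.7% in Apaf1, 72% in Casp9 and 63% in Casp6, against 43.3% in Casp1 and 41% in Casp12 and a median of 51.7% over all promoters. CG dinucleotides numbered 43 in Apaf1, 24 in Casp9 and 16 in Casp6, and only 4 in Casp1 and 3 in Casp12, with a median of 7. The core of the MEF2 site (CTA, any 4 bases and TAG, the same on both strands) was in none of the 5 promoters and in 3.84% of all. These are matches of letters and do not show binding.

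Among the initiators, Casp8 encodes the caspase that death receptors activate. Its level was 5.77 on the lacZ-labelled array and 5.33 on the Mef2d-labelled array, a difference of -0.44, or 1.36-fold lower on the latter. This lay 2.08 robust SDs below the centre of the 581 genes of similar level, of which 19, Casp8 included, had a difference at least as low. Over all 11614 genes 171 did. Casp8 is a dim probe set here, and RMA compresses the differences of dim probe sets.

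Casp9 encodes the initiator of the mitochondrial route. It had levels of 7.09 and 7.15 on the lacZ-labelled and Mef2d-labelled arrays (difference 0.06, 1.04-fold), which is 0.34 robust SDs from the centre of similar genes. Its level was thus nearly the same on both arrays. Apaf1, the scaffold that activates caspase-9, had levels of 8.12 and 7.84 in the same order (difference -0.28, 1.22-fold). That lay 1.68 robust SDs below the centre, and 34 of 581 similar genes were at least as low. The 2 partners in the apoptosome thus had unequal differences on these arrays.

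Casp6 encodes an executioner caspase, which cuts the nuclear lamins. It had levels of 6.87 on the lacZ-labelled array and 6.89 on the other, a difference of 0.02. The level was thus nearly the same on both arrays, and 275 of 580 genes of similar level had a difference at least as high.

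Casp1 and Casp12 belong to the inflammatory caspases. Caspase-1 matures the cytokines interleukin-1 beta and interleukin-18 in inflammasomes, and caspase-12 of rodents is linked to the endoplasmic reticulum. Casp1 had levels of 3.75 on the lacZ-labelled array and 3.88 on the Mef2d-labelled array, both under the level filter, so its difference of 0.13 carries little weight. RMA gives no detection call, and a level this low cannot be told from background. Casp12 had levels of 7.88 and 7.84 in the same order (difference -0.03), so the arrays hardly differed for it. In the reference table Casp1, Casp4 and Casp12 are consecutive protein-coding genes with none between them. Casp4, the rodent gene also called Casp11, which senses lipopolysaccharide inside cells, had levels of 8.61 and 8.70 (difference 0.08). The 2 neighbours above the filter thus differed by less than 0.1 in opposite directions.

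The inhibitor Xiap had a level of 7.04 on the lacZ-labelled array and 7.51 on the Mef2d-labelled array. The difference of 0.47 (1.38-fold) lay 2.51 robust SDs above the centre of 581 similar genes, of which 17, Xiap included, were at least as high. Over all 11614 genes 228 were. Xiap had the largest difference in size of the 8 genes, and at a threshold of 1.3-fold it was the 1 of 7 that was higher, where 3.51% of all genes were. At that threshold Casp8 was the 1 of 7 that was lower, where 2.47% of all genes were.

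Birc3 encodes cIAP2, a ubiquitin ligase of tumour necrosis factor receptor signalling. Its levels were 5.14 on the lacZ-labelled array and 5.28 on the Mef2d-labelled array (difference 0.15), which is 1.04 robust SDs from the centre, and 99 of 581 similar genes were at least as high. Birc2, its neighbour with no protein-coding gene between them, encodes cIAP1 and had levels of 6.11 and 6.02 (difference -0.09). The names of these 2 genes need care, because the reference table lists Birc2 among the older names of Birc3. For Birc3 the identifier in the probe set's name matched the current symbol. Birc2 was taken by its symbol in the platform annotation, without that check.

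**Figure D2:**
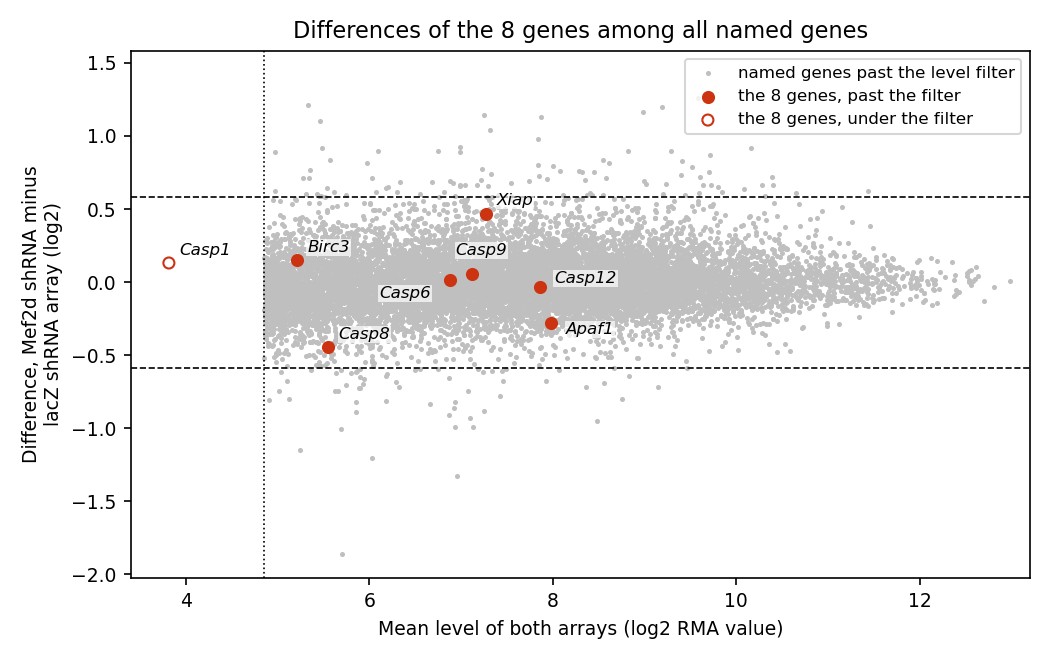
Difference between the arrays (Mef2d shRNA minus lacZ shRNA, log2, vertical axis) against the mean level of both (log2 RMA value, horizontal axis) for 11614 named genes past the filter (grey) and the 8 genes (red, open where under the filter). Dashed lines mark 1.5-fold and the dotted line the filter. All 8 genes lie between the dashed lines, with Xiap (0.47) and Casp8 (-0.44) nearest to them.

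Other genes of the pathway were taken from 6 lists with 58 symbols. Of these, 51 were measured and 40 were past the level filter, with 18 differences above 0, 22 below and a median of -0.02. None of the 40 was 1.5-fold higher, where 0.844% of all genes were, or 1.5-fold lower, where 0.534% were. With shares this small, 0 of 40 is near the rate of all genes. The range was -0.40 to 0.57. At 1.3-fold 2 of 40 were higher, Cradd and Xkr8, where 3.51% of all genes were, and 1 was lower, Gsdme, where 2.47% were, so these shares are near those of all genes.

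The list of death receptors, adaptors and their regulators surrounds Casp8. Of its 13 genes past the filter 10 were below 0 and 3 above, with a median of -0.03. The receptor genes Fas (7.74 on the lacZ-labelled array, 7.68 on the other), Tnfrsf1a (9.27 and 9.26) and Tnfrsf10b (8.22 and 8.15) were nearly level. Fadd, the adaptor that brings caspase-8 to its receptors, had levels of 7.09 and 7.39 (difference 0.31), against the direction of Casp8. Cflar, whose product FLIP is a caspase-like regulator of caspase-8, had levels of 7.64 and 7.44 (difference -0.20). It lies next to Casp8, and the annotated spans of the 2 genes overlap in the reference table. Strands, exons and probe positions in the shared stretch were not examined, so whether any probe could match both genes is not known. Tradd and the kinase gene Ripk1, both of tumour necrosis factor signalling, each had a difference of -0.20. Tnf, the ligand gene itself, had levels of 5.13 and 5.40 (difference 0.27), opposite in sign and 1.70 robust SDs above the centre, with 37 of 581 similar genes at least as high. The necroptosis genes Ripk3 (-0.03) and Mlkl (-0.04) were near 0.

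Cradd, the adaptor of caspase-2 also known as RAIDD, had the largest difference of all the pathway genes. Its level was 7.38 on the lacZ-labelled array and 7.95 on the Mef2d-labelled array, a difference of 0.57 (1.48-fold), just under the threshold. It lay 3.38 robust SDs above the centre, and 6 of 581 similar genes were at least as high. Beyond 3 robust SDs above the centre stood 1.52% of all genes, and among the 40 pathway genes 1, Cradd. Its partners in the PIDDosome, the complex that activates caspase-2, did not differ by as much: Casp2 had levels of 6.84 and 6.94 (difference 0.10), and Pidd1, listed under its older symbol Lrdd, 7.79 and 7.77 (difference -0.02).

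Proteins that leave mitochondria and act on caspases or DNA had 4 genes past the filter, 2 above 0 and 2 below, with a median of -0.07. Diablo, also called Smac, which frees caspases from XIAP, had levels of 9.83 on the lacZ-labelled array and 9.61 on the Mef2d-labelled array (difference -0.22), opposite in sign to Xiap. It lay 1.63 robust SDs below the centre, and 25 of 581 similar genes were at least as low. Htra2, a second antagonist of XIAP, had a difference of 0.09. Aifm1 was at -0.17 and Endog at 0.04, and the cytochrome c gene Cycs was not analysed here. The other inhibitors of apoptosis and their partners had 4 genes past the filter and a median of -0.09, with 3 below 0. Birc6 (10.31 and 10.23), which encodes a very large inhibitor of apoptosis, differed by -0.08. Xaf1, an antagonist of XIAP, was above 0 at 0.20, from levels of 4.97 and 5.18 near the filter. So none of the other measured inhibitor genes past the filter had a difference as large as that of Xiap.

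Of the 10 caspase substrate genes, all past the filter, 6 were above 0 and 4 below, with a median of 0.04. Xkr8, a scramblase that exposes phosphatidylserine once caspases cut it, had levels of 6.95 and 7.37 (difference 0.42, 1.34-fold). Gsdme, listed as Dfna5, a pore-forming gasdermin, had levels of 6.40 and 6.00 (difference -0.40, 1.32-fold). Dffa, the inhibitor of the caspase-activated DNase, was at -0.25 and the DNase gene Dffb at 0.05. Parp1 was at 0.19 and Rock1 at 0.10. Gsdmd, a second gasdermin gene, had levels of 7.73 and 7.79 (difference 0.06).

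Around Casp1, the inflammasome list had 13 measured genes, of which 7 were past the filter, with 4 above 0, 3 below and a median of 0.02. Like Casp1, the sensor genes Nlrp3, Nlrc4 and Aim2 and its cytokine substrate genes Il1b and Il18 had mean levels under the filter. The sensor gene Nlrp1a, listed as Nlrp1, was past it, with levels of 7.02 and 7.07 (difference 0.05). The adaptor gene Pycard had levels of 6.13 and 6.15 (difference 0.02). Nod1, a sensor of bacterial peptidoglycan, had the lowest difference of those past the filter, at -0.30, and Mefv the highest, at 0.28, from levels around the filter.

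**Figure D3:**
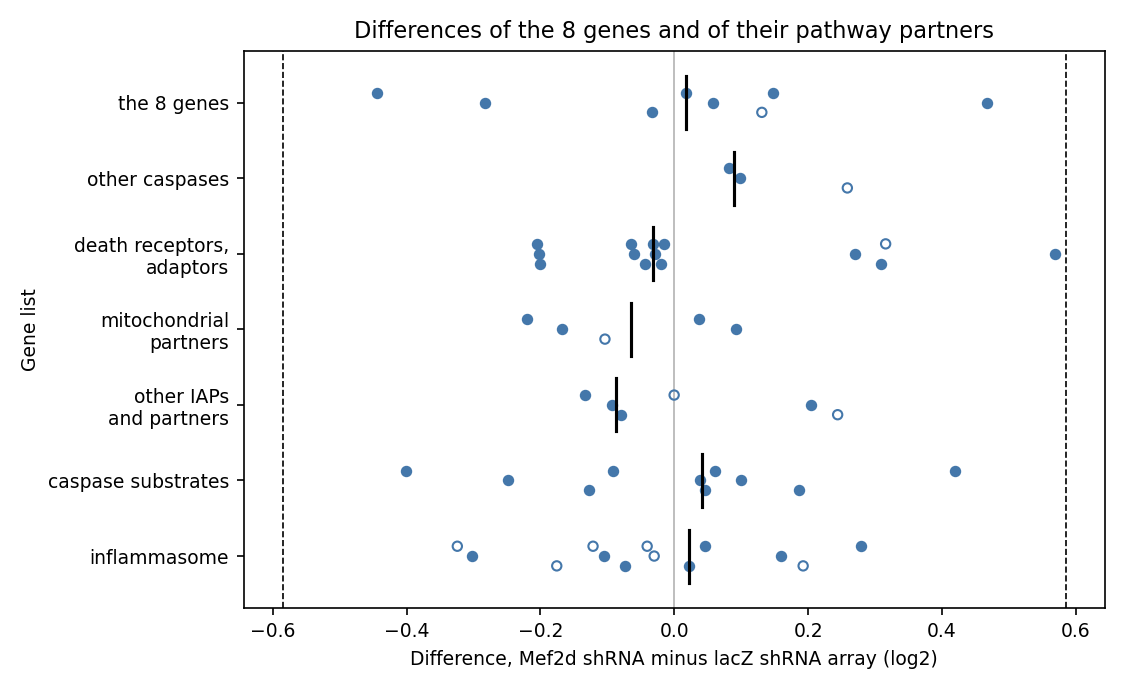
Difference between the arrays (Mef2d shRNA minus lacZ shRNA, log2, horizontal axis) of each measured gene in the 8 genes and in 6 pathway lists, with open points for genes under the level filter, black bars for the median of those past it and dashed lines at 1.5-fold. No point lies beyond the dashed lines, and the point nearest to them is Cradd at 0.57.

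Genes of the interferon response and of other cell types were set beside these values, since some caspase genes respond to interferon and leukocytes express inflammatory caspases. Of 16 interferon-stimulated genes past the filter 15 were below 0, with a median of -0.32, and 3 were at least 1.5-fold lower, where 0.534% of all genes were. Of the 8 genes, Casp8 (-0.44) and Apaf1 (-0.28) had differences in this direction. Xiap (0.47), Birc3 (0.15) and Casp1 (0.13, under the filter) had differences in the other, as did Xaf1 (0.20) of the pathway lists. Casp12 (-0.03), Casp6 (0.02), Casp9 (0.06) and the neighbour Casp4 (0.08) stood near 0. The interferon regulatory factor core shown above in the Casp1 and Casp12 promoters was in 8 of the 11 interferon-stimulated promoters at hand, and in 3.92% of all promoters. Of these 8, Bst2 had a difference of 0.06 and the others were below 0, from -0.20 (Ifit3) to -0.56 (Irf7). No promoter of Casp8 was at hand. Irf7, a factor that binds such sites, had levels of 7.42 on the lacZ-labelled array and 6.85 on the Mef2d-labelled array. Irf1, of the same family, had levels of 7.57 and 7.45 in the same order (difference -0.12). The part of the interferon response in the differences of Casp8 and Apaf1 was not tested.

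Of 12 macrophage and leukocyte markers measured, 9 were past the filter, 6 of these were below 0 and 3 above, and their median was -0.11. Their levels ran from 4.34 to 9.28 on the lacZ-labelled array and from 4.20 to 8.94 on the other, with means of 6.49 and 6.42. Aif1, Cd163 and Itgam were under the filter, and Ptprc, the leukocyte gene of CD45, had levels of 5.69 and 5.36. Other markers were well past the filter. Lyz2 had levels of 9.28 and 8.94 (difference -0.34), Fcer1g 8.25 and 8.08, Cd68 7.62 and 7.56, and Tyrobp 7.24 and 7.48 (difference 0.24). Fibroblast markers had a median of -0.11 over 9 genes past the filter, with 6 below 0, and mean levels of 9.10 and 9.04 over the 10 measured. Cardiomyocyte markers had a median of 0.06 over 12 genes, with 7 above 0, and ranged widely. Myh6 was at -0.46, Myh7 at 0.39 and Tnni3 at 0.36, which lay 2.89, 3.44 and 2.44 robust SDs from the centre of similar genes, distances like those of Xiap and Casp8 or larger. Smooth muscle markers had a median of -0.0014 over 6 genes, and 5 of 7 endothelial markers were under the filter. The part of these cell types in the differences of Casp8, Apaf1 and Xiap was not tested, and in RNA from whole cultures fewer cells of a type cannot be told from less RNA per cell.

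**Figure D4:**
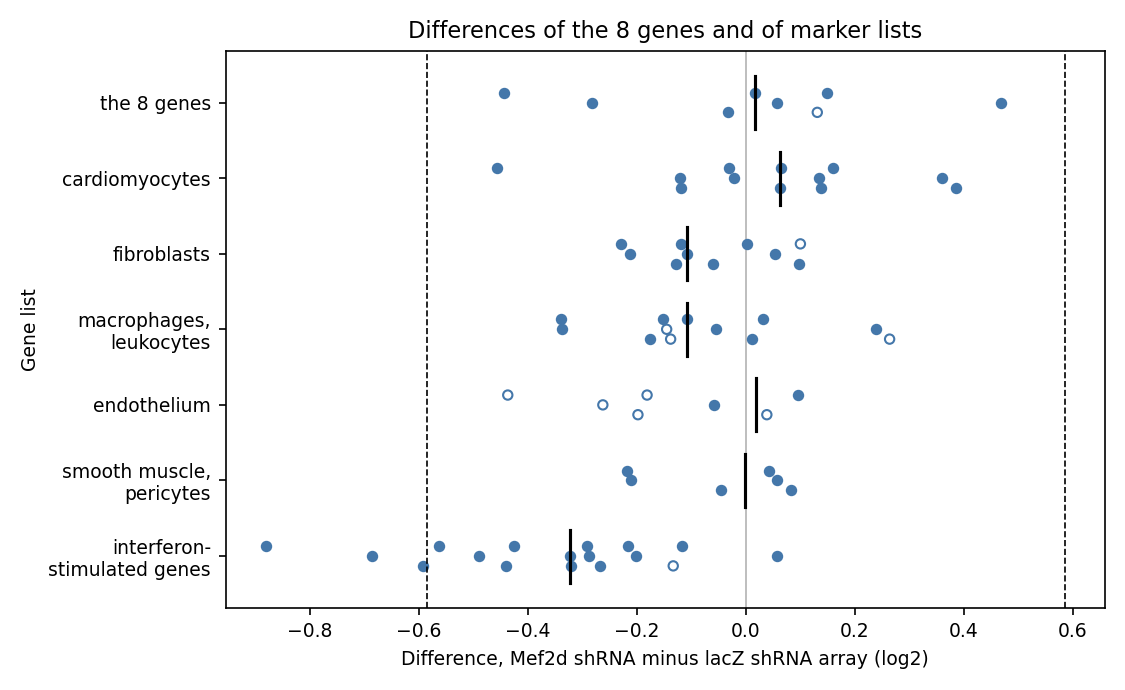
Difference between the arrays (Mef2d shRNA minus lacZ shRNA, log2, horizontal axis) of each measured gene in the 8 genes, 5 cell type marker lists and the interferon-stimulated genes, with open points for genes under the level filter, black bars for the median of those past it and dashed lines at 1.5-fold. The interferon-stimulated genes lie to the left (median -0.32), and the 8 genes lie on both sides of 0 (median 0.02).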

How the data were processed

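The deposited values are log2 levels per probe set, made by the authors: the submitters' processing notes name RMA and affy 1.36.1. RMA corrects background, normalizes quantiles between arrays and summarizes the probes of a probe set. How probes were assigned to probe sets is not stated in these sources. Of 19239 probe sets, 16592 have 1 gene symbol in the platform annotation, none has several, and 2647 are unnamed here. Differences were computed from these values with pandas 2.3.3 and numpy 2.4.6, without further normalization, and each value column was used. The number of arrays, 1 per condition, limits the precision. The pathway symbols were matched directly or, for 4 of them, through an older symbol of one gene identifier. The text describes by name the 8 genes, Mef2d as the target, and any measured gene of the pathway and marker lists, whereas a count of named genes covers every probe set with a symbol. Some genes are not reported here. The 8 genes and the lists were chosen with earlier results of these data known. The counting step was tested on simulated data. Alternatives were 3 other scalings, 3 other call rules and 2 other level filters.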

Additional observations from a re-analysis of the deposited data

How the results depend on the processing

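Under quantile normalization, median centring or a loess correction (statsmodels 0.14.6, span 0.3), none of the 8 genes changed the sign of its difference, and the largest shift was 0.043. For the 8 genes the counts of 0 past 1.5-fold held under these scalings. Median centring and a second quantile normalization could move little, however. RMA had already normalized quantiles, and the median levels were 6.29 on the lacZ-labelled array and 6.28 on the Mef2d-labelled array. The 2-fold rule and the other level filters could only give 0 as well. Without a filter only Casp1 (0.13) is added, and the filter at the median level keeps 5 of the same 7 genes. At 1.3-fold 1 of the 7 genes was higher (Xiap) and 1 lower (Casp8), and of the 40 pathway genes 2 were higher and 1 lower. Beyond 3 robust SDs, 1 pathway gene, Cradd, was higher. The inflammasome median changed sign, to -0.04 over 13 genes without a level filter and to -0.11 over the 3 genes at or above the median level, so it has no settled direction. No paired analysis was possible because there is only 1 array in each group, and no replicate could be left out. Low signal limits Casp1, Casp8 and Birc3.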
